A study of Homo sapiens with 22 samples.

Results

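The regions described here are places in the chromatin of K562 cells where the transcription factor Jun was called within 6 h of PMA treatment and not before it. They were chosen from the 137719 Jun regions on chromosomes 1 to 22 and X as those that overlapped, by at least 1 bp, a Jun peak of both libraries at 6 h and a Jun peak of neither library at 0 h. The rule gave 4067 regions, or 2.95% of the Jun regions. Of these, 3889 (95.6%) also overlapped a Jun peak of both libraries at 72 h and are called kept. The other 178 are called not kept, and of them 78 overlapped a peak of 1 of the libraries at 72 h and 100 overlapped none. Of all Jun regions, 77546 (56.3%) overlapped a peak of both libraries at 72 h. Far more Jun peaks were called at 72 h (92329 and 99102) than at 6 h (23946 and 35376). The number of regions depended on both libraries at 6 h. Without replicate 1 at 6 h the rule gave 12843 regions, of which 80.6% were kept, and without replicate 2 it gave 7107, of which 71.0% were kept.

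K562 is a human leukemia line that takes on features of megakaryocytes, the cells that shed platelets, when it is given PMA, a phorbol ester that activates protein kinase C. All groups were wild-type K562 given 25 nM PMA for 0, 6 or 72 h, fixed with formaldehyde and profiled with 1 antibody each by CUT&RUN, in which a nuclease tethered to the antibody cuts out the bound DNA. Antibodies were against Jun, H3K27ac (a histone H3 acetylation that marks active enhancers and promoters), CTCF (a zinc finger protein of insulators and loop anchors) and Rad21 (a subunit of cohesin, the ring that holds chromatin loops), with 2 libraries per group and 22 in all. All 3 times were profiled with each antibody except Rad21, for which 6 h was not. The labels do not say that replicates came from separate cultures, so p-values measure only the spread between these libraries. In such bulk libraries, more cells carrying a mark and more of it per cell cannot be told apart. Total counts in regions were 4766421 to 18883962 per Jun library, lowest at 6 h and highest at 72 h, 12634261 to 27266241 for H3K27ac, 2553677 to 6068421 for CTCF and 4398797 to 7285286 for Rad21. Between 18.1% and 27.7% of the Jun counts at 0 and 6 h, and 9.07% and 8.58% of those at 72 h, lay on the mitochondrial chromosome. As a check of the line, H3K27ac beside the start of GATA1, an erythroid and megakaryocyte transcription factor, was 24.5 and 25.3 CPM (counts scaled per 1e+06 counts in tested regions) in the libraries at 0 h.

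Jun is a basic leucine zipper protein that binds DNA as a dimer with Fos, ATF or Maf partners, and the dimers together are called AP-1. AP-1 is an end point of protein kinase C and MAP kinase signalling, is made and modified within minutes to hours of a phorbol ester, and binds the palindrome TGANTCA, with a CRE-like form TGACGTCA for Jun and ATF dimers. Most AP-1 sites in differentiated cells lie in enhancers far from gene starts, where AP-1 is known to work with lineage factors.

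Sequence was examined only in promoter windows of RefSeq genes (GRCh38.p14), each 250 bases before to 50 bases after a start, because no genome sequence was used here. Of the 4067 regions, 121 (111 kept and 10 not kept) overlapped 134 such windows. The set of windows was incomplete: a start on the same chromosome was held for 3892 of the 4067 regions. TGANTCA, which reads the same on both strands, lay in 44 of the 134 windows (32.8%), against 2684 of all 34961 windows (7.68%). It lay in 43 of the 122 windows of kept regions and in 1 of the 12 of regions not kept. At regions with a Jun peak in all 6 libraries it lay in 11.5% of windows, and at regions with a Jun peak in both libraries at 72 h and at no earlier time in 24.1%. TGACGTCA, searched on both strands, lay in 0 of the 134 windows, against 7.53% of the windows at regions with a Jun peak in all 6 libraries and 1.85% of all windows. A window is not the whole Jun region, and a match is a description of letters, not of a bound site.

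The following are the 250 bases before 5 gene starts that lay in a gained Jun region, 5′ to 3′ on the strand of the gene, with TGANTCA in capitals. They were chosen after their values were seen. They show kept promoters with 2 and 1 copies, a kept promoter without an H3K27ac region and the promoter not kept that held the motif.
RUNX1-AS1, chr21:34836063-34836312, strand +: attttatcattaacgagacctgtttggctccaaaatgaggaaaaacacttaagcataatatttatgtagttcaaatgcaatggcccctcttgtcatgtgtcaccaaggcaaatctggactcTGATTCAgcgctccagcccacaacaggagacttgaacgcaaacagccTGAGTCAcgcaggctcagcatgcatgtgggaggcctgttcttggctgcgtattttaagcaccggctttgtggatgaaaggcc
EMP1, chr12:13196476-13196725, strand +: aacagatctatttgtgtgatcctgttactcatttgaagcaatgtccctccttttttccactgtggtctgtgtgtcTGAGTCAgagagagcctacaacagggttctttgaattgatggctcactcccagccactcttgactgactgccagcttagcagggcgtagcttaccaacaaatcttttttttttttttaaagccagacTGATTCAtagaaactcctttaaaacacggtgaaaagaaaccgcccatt
BBC3, chr19:47232668-47232917, strand -: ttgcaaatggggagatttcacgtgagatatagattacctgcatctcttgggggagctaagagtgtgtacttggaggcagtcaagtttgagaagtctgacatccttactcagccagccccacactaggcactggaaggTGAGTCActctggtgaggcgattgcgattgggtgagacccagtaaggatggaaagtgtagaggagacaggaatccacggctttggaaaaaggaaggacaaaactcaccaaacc
KSR1, chr17:27471714-27471963, strand +: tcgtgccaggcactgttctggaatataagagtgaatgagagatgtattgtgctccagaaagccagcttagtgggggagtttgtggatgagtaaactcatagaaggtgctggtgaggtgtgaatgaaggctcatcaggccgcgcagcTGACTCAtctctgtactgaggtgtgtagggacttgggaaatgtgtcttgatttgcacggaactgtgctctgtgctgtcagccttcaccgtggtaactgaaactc
RAB3B, chr1:51990701-51990950, strand -: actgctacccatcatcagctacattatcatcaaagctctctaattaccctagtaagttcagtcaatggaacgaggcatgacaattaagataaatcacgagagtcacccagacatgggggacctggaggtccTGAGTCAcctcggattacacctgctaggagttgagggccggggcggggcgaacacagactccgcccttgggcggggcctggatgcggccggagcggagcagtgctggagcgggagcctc

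RUNX1-AS1 is an antisense transcript that starts inside RUNX1, the gene of a transcription factor required for megakaryocytes, and its promoter holds TGATTCA and TGAGTCA. Jun there was 7.73 and 7.17 CPM at 0 h, 24.7 and 32.7 at 6 h, and then 33.8 and 30.3 at 72 h, so both later times lay above 0 h. H3K27ac was 2.04 and 2.90 CPM at 0 h, 17.5 and 18.6 at 6 h, and then 39.7 and 38.8 at 72 h, a step at each time with no overlap between groups. The log2 fold change of H3K27ac over 0 h was 2.86 ± 0.17 (SE) at 6 h and 3.98 ± 0.16 at 72 h (edgeR's quasi-likelihood test, Benjamini-Hochberg adjusted p = 2.3e-13 and 1.31e-17). EMP1, the gene of a membrane protein, also held 2 copies, with Jun at 3.50 and 5.02, 11.6 and 10.9, and 16.7 and 14.0 CPM at 0, 6 and 72 h. Its H3K27ac was 0 and 0.316 CPM at 0 h, 4.34 and 3.40 at 6 h, and then 6.80 and 7.83 at 72 h, and both later times were called higher than 0 h.

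At BBC3, the gene of the pro-apoptotic protein PUMA, Jun was 7.0 and 7.6 CPM at 0 h, 17.5 and 17.3 at 6 h, and then 18.9 and 18.4 at 72 h. H3K27ac at BBC3 was 1.99 and 1.48, 5.74 and 6.45, and 14.1 and 15.8 CPM at 0, 6 and 72 h, and was called higher at both later times. KSR1 encodes a scaffold of the RAF, MEK and ERK kinases, and the Jun region at its start (6.13 and 6.02, 11.6 and 16.6, and 6.85 and 7.85 CPM) overlapped no H3K27ac region. RAB3B, a small GTPase of vesicle release, was the not kept promoter with the motif. Jun there was 3.79 and 3.73 CPM at 0 h, 10.2 and 7.12 at 6 h, and then 1.57 and 2.12 at 72 h, with the times not overlapping. H3K27ac at RAB3B was 0 and 0.158 CPM at 0 h, 1.47 and 1.08 at 6 h, and then 0.326 and 0.364 at 72 h, called higher at 6 h (adjusted p = 0.000285) and not at 72 h (adjusted p = 0.052, edgeR). Over the 39 gene starts with the motif in the 250 bases before them and inside a gained region, 38 were kept, and H3K27ac was called higher at 6 h at 32, was not called at 2 and had no region at 5. Of all 4067 gained regions, 95.6% were kept and 66.1% were called higher in H3K27ac at 6 h. The part of the motif was not tested.

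Jun chose these regions, so its levels are given as a description. In kept regions the median Jun level was 3.94 and 3.87 CPM at 0 h, 11.1 and 12 at 6 h, and then 10.0 and 10.0 at 72 h. In regions not kept it was 2.92 and 2.87, then 7.26 and 6.20, then 1.81 and 1.76, so with this scaling 72 h lay below 0 h. Their median log2 fold change at 72 h over 0 h was −0.69, beside −0.77 at regions with a Jun peak in all 6 libraries. Lacking a Jun peak in both libraries at 72 h was itself what defined regions not kept. Regions with a Jun peak in all 6 libraries (11807) had higher medians at every time, 19.7 and 20.2, 17.3 and 19, and 13.2 and 12.8 CPM. Regions with a Jun peak in both libraries at 72 h and in none before (36516) had lower ones, 2.04 and 2.01, 2.72 and 2.55, and 3.99 and 4.03. Kept regions were wider, with a median of 698 bp against 391 bp for regions not kept and 477 bp for all Jun regions, and a wider region collects more counts.

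**Figure D1:**
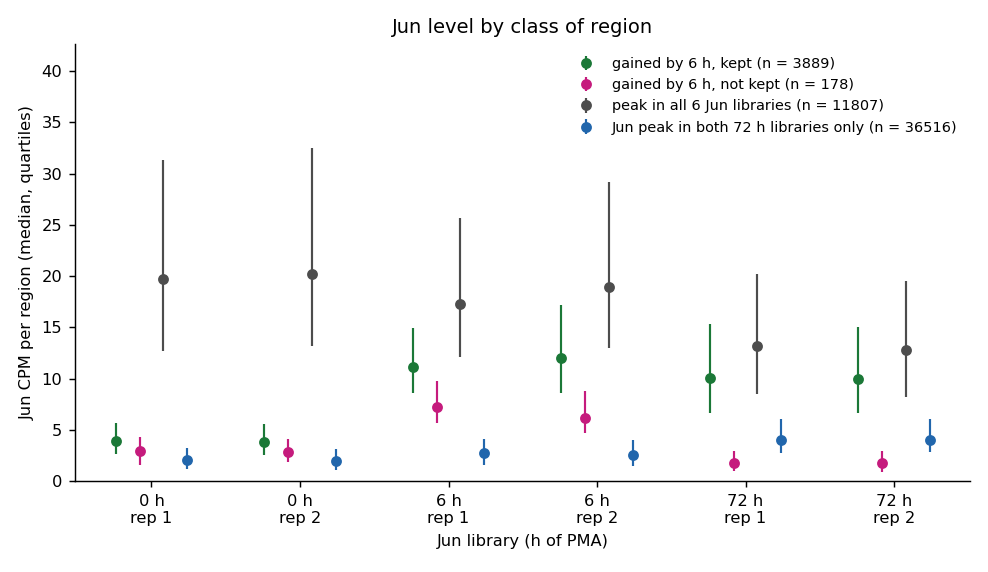
Jun CPM per region in each of the 6 Jun libraries (x axis, hours of PMA and replicate), as medians (points) and quartiles (bars) for 4 classes of Jun region. Kept regions stay near 10 CPM at 72 h, and regions not kept fall to 1.81 and 1.76 CPM.

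The peak rule used the Jun libraries, so their calls are a description from which nothing is read. At 6 h against 0 h, 3531 of the 4067 regions were called higher in Jun and 536 were not called (13.1% higher and 12.2% lower of all tested Jun regions). At 72 h against 0 h, 3025 kept regions were called higher and 38 lower (28% and 25.7% of all tested). At 72 h against 6 h, 355 kept regions were called higher and 1061 lower (12.7% and 13.5% of all tested). The direction of that last contrast depended on scaling: over all 4067 regions, 355 higher and 1230 lower became 732 and 522 when libraries were scaled by total counts, and 1211 and 331 when the scale was set on regions with a Jun peak in every library. Total counts here included mitochondrial ones, 21.3% and 18.1% at 6 h and 9.07% and 8.58% at 72 h, and their part was not tested. The 6 and 72 h contrasts share the libraries at 0 h.

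The rule has an edge, shown here with no test. The kept region with the weakest 6 h peak, chr5:19531557-19532238 near CDH18 (a cadherin), had −log10 q of 2.08 and 4.37 in the 6 h libraries and counts of 34 and 41 at 0 h, 38 and 39 at 6 h, and then 112 and 121 at 72 h. The next weakest, chr3:10198592-10199362 near IRAK2 (a kinase of interleukin 1 receptor signalling), had −log10 q of 2.54 and 9.45. Just outside lay chr10:97882396-97883091 near CRTAC1, with a peak in only 1 library at 6 h (−log10 q 34.9), and chr3:36935241-36935440 near TRANK1, likewise (36.3). Also outside were chr12:65259-66052 near IQSEC3 and chr6:42918356-42919080 near PTCRA, each with peaks at 6 h in both libraries and a weak peak in replicate 1 at 0 h (−log10 q 2.75 and 2.78).

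H3K27ac was not used to choose the regions. A call could be made only where an H3K27ac region was defined. Of the kept regions, 92.7% had no H3K27ac peak in either library at 0 h, 94.5% no Rad21 peak and 96.7% no CTCF peak. A region defined through a later peak leans towards being called higher, so the splits of higher and lower below are a description. At 6 h against 0 h, 2662 of the 3889 kept regions overlapped an H3K27ac region called higher, 133 one called lower and 298 one not called, while 792 had no H3K27ac region and 4 an untested one. At 72 h against 0 h the counts were 2633, 205 and 255, with the same 792 and 4. Of the 178 regions not kept, 123 had no H3K27ac region. The other 55 were called higher in 26, lower in 11 and not called in 18 at 6 h, and higher in 13, lower in 28 and not called in 14 at 72 h. Over all tested H3K27ac regions, 32.3% were called higher and 26.3% lower at 6 h, and 43.4% and 38.1% at 72 h.

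Counted over the distinct tested H3K27ac regions, which leave out Jun regions without one, the median log2 fold change over 0 h at kept regions was 2.49 at 6 h and 2.95 at 72 h, beside 0.20 and 0.18 over all tested. At the 58 tested H3K27ac regions that touched a region not kept it was 0.70 at 6 h and −0.58 at 72 h. Over those at all Jun regions it was 0.435 and 0.748. Where Jun had peaks in both libraries at 72 h and in none before, it was 1.102 and 2.628. There 78.2% were called higher at 72 h, beside 84.8% at kept regions, so a rise by 72 h was not particular to kept regions. The level itself went from a median of 0.738 CPM in both libraries at 0 h to 4.97 and 4.43 at 6 h and 7.35 and 6.99 at 72 h at kept regions. At regions not kept it was 2.75 and 2.87, 5.21 and 5.22, and 2.59 and 2.69 CPM, so 0 and 72 h lay close together. Scaling by total counts moved the median of all tested regions to 0.53 at 6 h and 0.42 at 72 h, and scaling on regions with a peak in every library to 0.55 and 0.82, with kept regions at 2.83 and 3.18, and 2.84 and 3.58. The share of calls that were higher, over all tested regions, moved from 55.1% to 71.8% and 73.0% at 6 h and from 53.3% to 58.5% and 69.6% at 72 h. For regions not kept at 72 h the split of 15 higher and 29 lower became 19 and 27 and, with the second scaling, 22 and 18, so its direction was not settled.

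**Figure D2:**
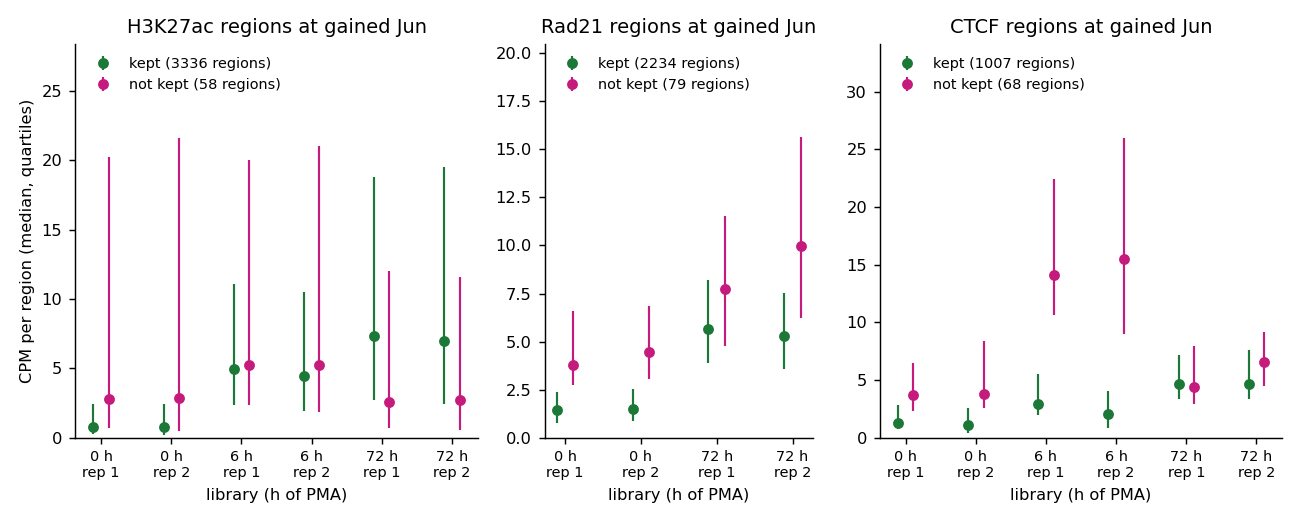
CPM per H3K27ac, Rad21 and CTCF region that overlaps a gained Jun region, in each library (x axis), as medians (points) and quartiles (bars) for kept and not kept Jun regions. H3K27ac at kept regions rises at 6 h and again at 72 h, and CTCF at regions not kept is highest in both libraries at 6 h.

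Between 6 and 72 h, 1457 kept regions were called higher in H3K27ac and 500 lower, with 1136 not called (33.1% and 30.8% of all tested). Over the distinct tested H3K27ac regions at kept regions, 1527 higher and 541 lower became 1426 and 628 with total-count scaling and 1870 and 334 with the scale set on regions with a peak in every library. Of the regions not kept with an H3K27ac region, 3 were called higher, 41 lower and 11 were not called. Of the kept regions called higher at 6 h, 1353 rose again by 72 h, 369 fell and 940 were not called. Jun and H3K27ac can be set side by side here: among the 355 kept regions called higher in Jun from 6 to 72 h, 328 were called higher in H3K27ac and 0 lower (0 also at unadjusted p under 0.05 and with DESeq2), with a median log2 change of 2.19. Among the 1061 called lower in Jun, 77 were called higher and 350 lower in H3K27ac (median −0.41), and among the 2473 not called in Jun, 1052 and 150 (median 0.60). Both antibodies are scaled separately, and the Jun calls of this contrast depend on the scaling as given above. The rule used the same Jun libraries, so the split by Jun calls is a description only.

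An H3K27ac peak lay in 5.94% and 6.33% of kept regions in the libraries at 0 h, in 29.0% and 30.0% at 6 h and in 66.5% and 63.2% at 72 h. In regions not kept the shares were 10.1% and 10.7%, 14.6% and 13.5%, and 10.7% and 11.2%. Each kept region was placed in 1 history: 192 (4.94%) had peaks in both libraries at 0 h, 93 in 1 library at 0 h, 629 (16.2%) in neither at 0 h and both at 6 h, 1480 (38.1%) first in both at 72 h, 449 some other order, and 1046 (26.9%) had no H3K27ac peak in any library. Of the regions not kept, 135 of 178 (75.8%) had no H3K27ac peak in any library, against 53.6% of all Jun regions. Of the 629, 575 (91.4%) still had a peak in both libraries at 72 h, against 2871 of 3294 such Jun regions overall (87.2%).

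**Figure D3:**
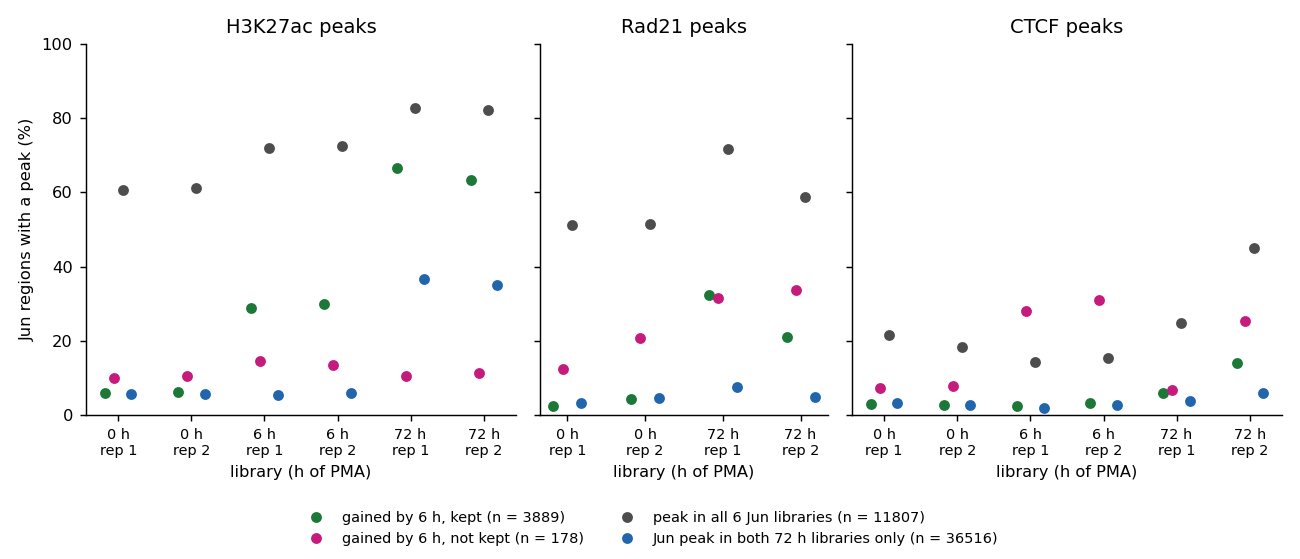
Share of Jun regions (y axis, %) that overlap an H3K27ac, Rad21 or CTCF peak in each library (x axis), for 4 classes of Jun region. For kept regions the H3K27ac share goes from 5.94% and 6.33% at 0 h to 66.5% and 63.2% at 72 h, while CTCF reaches at most 14.0%.

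Kept regions with more Jun at 6 h were more often acetylated. Split into 4 equal classes by Jun CPM at 6 h, from low to high, the share with an H3K27ac peak in both libraries was 9.66%, 14.8%, 24.4% and 38.0% at 6 h and 42.5%, 52.4%, 66.8% and 76.3% at 72 h. Rad21 went the same way: the share with a Rad21 peak in both libraries at 72 h was 5.96%, 11.1%, 13.2% and 22.7%. The share with no H3K27ac region at all was 35.9% in the lowest class and 7.61% in the highest. Width, which moves with CPM, was not held constant, and its part in this order was not tested. The rule used the Jun libraries at 6 h, so this order too is a description.

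Rad21, the cohesin subunit, was profiled at 0 and 72 h. Of the kept regions, 1490 overlapped a Rad21 region called higher at 72 h, and 8 one called lower, while 1774 had no Rad21 region, 55 an untested one and the others one that was not called (15.4% higher and 7.91% lower of all tested). Of the regions not kept, 42 were called higher, 1 lower and 35 not called, with 99 without a region and 1 untested. The median level at kept regions was 1.42 and 1.48 CPM at 0 h and 5.66 and 5.28 at 72 h, and at regions not kept 3.77 and 4.43, and 7.74 and 9.99. The median log2 fold change was −0.05 over all tested Rad21 regions and 0.267 over those at all Jun regions. Where Jun had peaks in both libraries at 72 h and in none before, it was 1.105. It was 1.94 over 2168 tested Rad21 regions at kept regions and 1.08 over 78 at regions not kept. In all, 1589 tested Rad21 regions were called higher, and this count was 906 with DESeq2 and 903 without replicate 1 at 72 h.

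Of the 1490 kept regions called higher in Rad21, 1314 were also called higher in H3K27ac at 72 h. No CTCF region lay at 891 of the 1490, beside 2908 of the 3889 kept regions overall. A further 1319 kept regions were called higher in H3K27ac and not in Rad21, and 176 in Rad21 and not in H3K27ac. At regions not kept, 41 of the 42 called higher in Rad21 were not called higher in H3K27ac, and 4 had no CTCF region. A Rad21 peak in both libraries at 72 h lay in 515 kept regions, of which 456 had none at 0 h, 16.9% had a CTCF peak in both libraries at 72 h and 82.9% an H3K27ac peak. Among all Jun regions with Rad21 peaks at 72 h those shares were 38.7% and 68.5%, and among Jun regions with a peak in all 6 libraries 37.1% and 83.0%. No region of any of the 3 other antibodies was found at 550 kept regions and 53 not kept.

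A CTCF region lay at 981 of the 3889 kept regions, beside 28117 of all 137719 Jun regions and 3390 of the 36516 with a Jun peak in both libraries at 72 h only. At 6 h against 0 h, 25 kept regions were called higher, 0 lower and 856 not called, with 100 untested and 2908 without a CTCF region (2.33% higher and 0.325% lower of all tested). Of the 178 regions not kept, 40 were called higher, 0 lower and 28 not called, and 110 had no CTCF region. Over kept and not kept regions together the lower count was 0 with edgeR and DESeq2, with 11 at an unadjusted p under 0.05. The higher count, 65, rested on the libraries at 0 h: without CTCF replicate 1 at 0 h it was 0 (247 at an unadjusted p under 0.05), without replicate 2 at 0 h it was 35, and without replicate 2 at 6 h it was 101. At 72 h against 0 h, 267 CTCF regions were called higher and 5 lower, 2 and 0 of them at regions not kept (4.07% and 2.72% of all tested), and that count was 2 without replicate 2 at 0 h, 13 without replicate 1 at 0 h, 40 and 28 without replicate 1 or 2 at 72 h, and 454 and 462 without replicate 1 or 2 at 6 h. At 72 h against 6 h, 11 kept regions were called higher and 0 lower, and 0 and 21 of those not kept (0.449% and 1.73% of all tested).

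**Figure D4:**
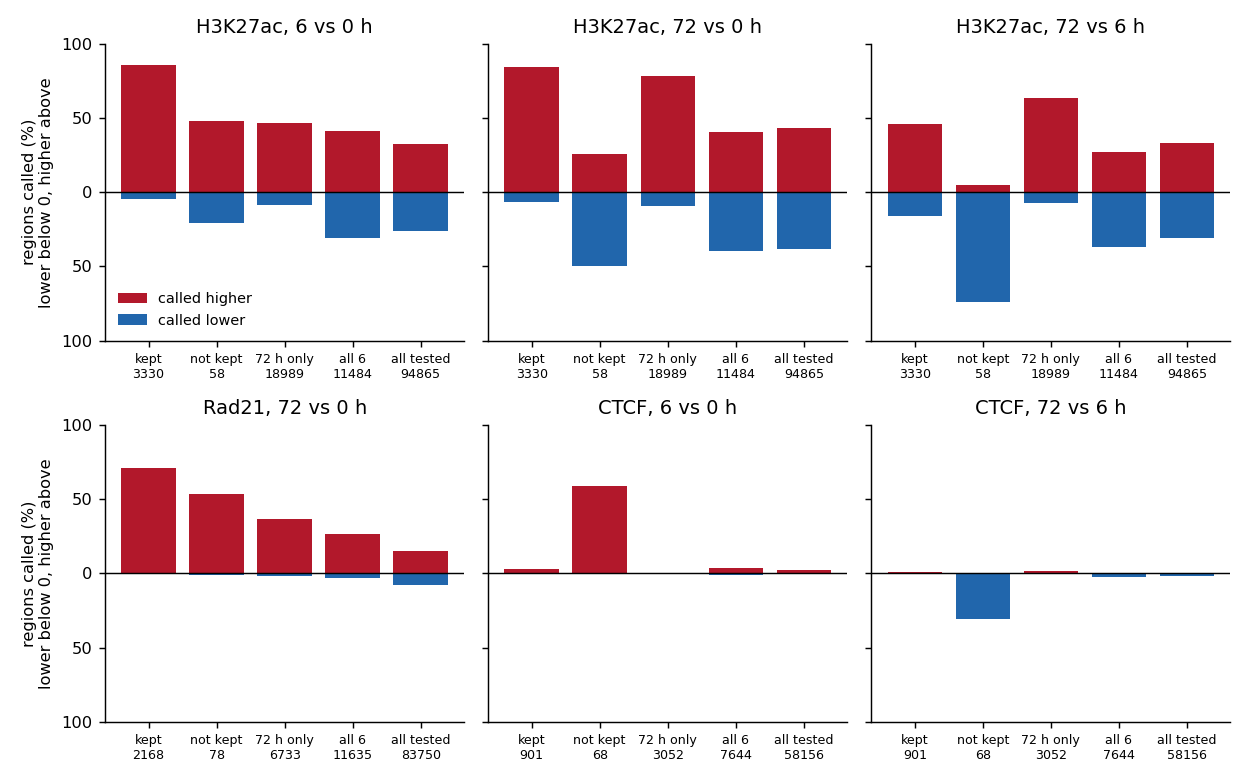
Share of tested regions (y axis, %) called higher (above 0) or lower (below 0) by edgeR at an adjusted p under 0.05, in 6 comparisons, for regions that overlap a kept or not kept Jun region, a Jun region seen at 72 h only or in all 6 libraries, and for all tested regions, with the number tested under each bar. Kept regions lead in H3K27ac and Rad21 gains over 0 h, and regions not kept lead in the CTCF gain at 6 h and its loss by 72 h.

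The 40 regions not kept whose CTCF was called higher at 6 h were looked at more closely after their values were seen, so the values are a description. They lay on 16 chromosomes, 37 had a Jun peak in neither library at 72 h, and 39 had no H3K27ac region. Median CTCF was 2.80 and 3.61 CPM at 0 h, 17.6 and 17.7 at 6 h, and then 4.15 and 6.81 at 72 h. Median Jun was 3.21 and 3.30 CPM at 0 h, 6.70 and 5.02 at 6 h, and then 0.761 and 0.764 at 72 h, and median Rad21 was 3.70 and 4.22 at 0 h and 9.67 and 13.1 at 72 h, with 35 called higher. The rise of CTCF at 6 h and the rise and fall of Jun were set by the choice of these regions. Rad21, which was not profiled at 6 h, was higher at 72 h than at 0 h. At 30 of the 40, both ends of the CTCF region lay within 10 bp of the ends of the Jun region.

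Those regions also shared a width. A width of 378 to 382 bp was found in 25 of the 40 (62.5%), in 36 of all 178 regions not kept (20.2%), in 2 of 3889 kept regions (0.0514%) and in 1.05% of all Jun regions. The window was set after the widths were seen, around the commonest width of regions not kept, 381 bp. Among peaks wider than 220 bp, 381 bp was the commonest width in the 4 Jun libraries at 0 and 6 h, in 5 of the 6 CTCF libraries and in the 4 Rad21 libraries, and in none of the H3K27ac libraries. The window held 3.57% and 3.24% of the CTCF peaks at 6 h and 3.23% and 4.11% of the Rad21 peaks at 72 h. What gives these peaks 1 width, and its part in the calls, was not tested.

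**Figure D5:**
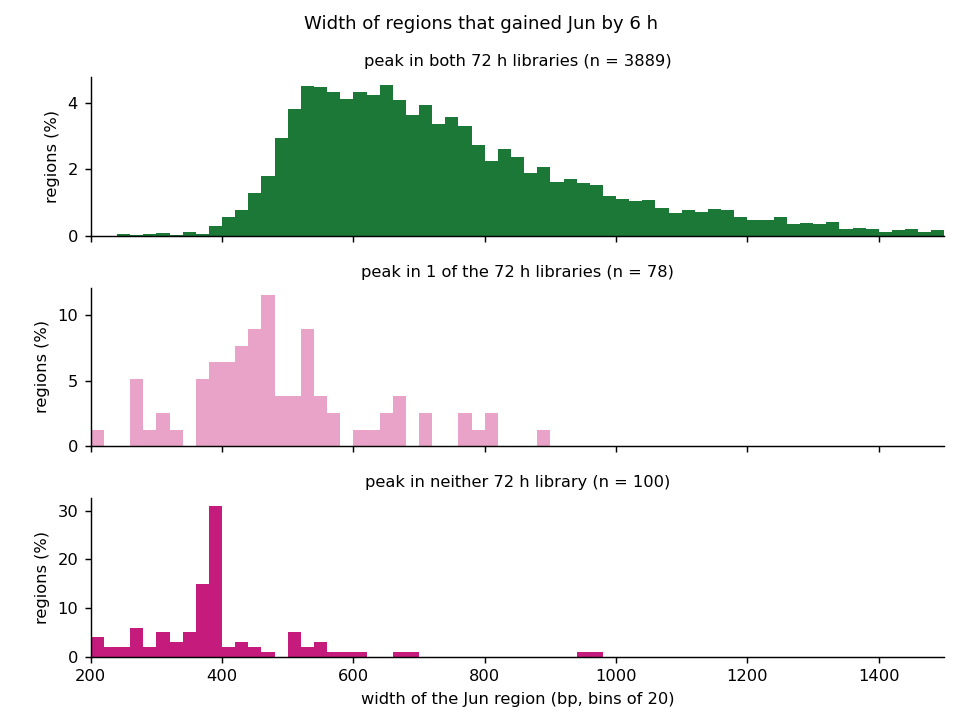
Width of gained Jun regions (x axis, bp, bins of 20; widths over 1500 bp are not drawn) as a share of each class (y axis, %), by whether both, 1 or neither library at 72 h had a Jun peak. The class with a peak in neither library has a narrow mode near 381 bp, and kept regions spread around a median of 698 bp.

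Examples of that pattern were taken by the rule for CTCF. At chr17:5242308-5242688, 7448 bp from SCIMP (an adaptor of immune receptor signalling), CTCF was 2.29 and 1.08 CPM at 0 h, 18.8 and 15.1 at 6 h, and then 2.53 and 8.71 at 72 h. The change at 6 h was, on the log2 scale, 3.24 ± 0.57 (SE, edgeR adjusted p = 0.00235), and both libraries at 6 h lay above all others. At chr14:86586955-86587334, near FLRT2 (a cell adhesion protein) but 932527 bp from it, CTCF was 2.04 and 2.17, 21.7 and 17.5, and 4.15 and 7.87 CPM, again with 6 h above the rest (3.21 ± 0.45, adjusted p = 0.00057). A further pair of regions not kept had the largest CTCF losses from 6 to 72 h by the rule. One lay near OTOL1 (chr3:162055770-162056146), with 5.35 and 6.86, 22.7 and 32.1, and 3.00 and 1.69 CPM (log2 change −3.59 ± 0.38, adjusted p = 0.00043). The other lay near APOOL, a mitochondrial protein (chrX:85000843-85001328), with 3.82 and 2.89, 22.7 and 31.7, and 2.53 and 5.62 CPM (−2.65 ± 0.37, adjusted p = 0.00088).

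The largest CTCF gains at 72 h by the rule lay at kept regions. In TBXAS1, the gene of thromboxane synthase of platelets, the CTCF region chr7:139889285-139889903 had 1.53 and 4.69 CPM at 0 h, 12.6 and 15.9 at 6 h, and then 22.1 and 20.4 at 72 h, with the times in rising order and no overlap (72 h against 0 h, log2 fold change 2.85 ± 0.40, adjusted p = 0.0027). The Jun region there held 7.29 and 6.16, 18.2 and 20.8, and 20.2 and 22 CPM, and its Rad21 rose from 1.1 and 2.32 to 11.6 and 10.7 (2.75 ± 0.41, adjusted p = 5.7e-05). Near JPH3, a junctophilin, CTCF at chr16:87580722-87581249 was 1.53 and 2.17 CPM at 0 h, 13.9 and 5.29 at 6 h, and then 15.4 and 16.9 at 72 h (3.14 ± 0.48, adjusted p = 0.00352).

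The starts used here were incomplete: 3892 of the 4067 gained regions and 131676 of all 137719 Jun regions had one on their chromosome. Shares and distances are over such regions only. A gene start lay in 2.52% of those 3892, against 17.8% of regions with a Jun peak in all 6 libraries and 5.69% of all Jun regions. The median distance to a start was 21854.5 bp, beside 22747 bp for all Jun regions. Of the 4067 gained regions, 53.7% lay in the span of a protein-coding gene, close to the 53.9% of all Jun regions. Exons and introns were not told apart. Each region was tied to the coding genes it overlapped or else to the nearest, which gave 3039 of 19974 genes. Among the genes with most regions were BCOR (a corepressor) with 9, JARID2 (a partner of the Polycomb complex) and RUNX1 with 8 each, and SPRED2 (an inhibitor of Ras signalling), ABTB2 and ZMIZ1 with 7 each. The length of genes was not held constant, and a nearest gene is not a known target.

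The gene lists are read beside all 4067 regions, of which 66.1% were called higher in H3K27ac at 6 h, 65.1% at 72 h and 37.7% in Rad21. Several lists lie near those shares, and no list was tested. Of all 19974 coding genes, 15.2% had a gained region, and of the 17573 with any Jun region 17.3% did. Lists were not matched for the number of Jun regions per gene, which was 61 at DUSP6 and at SPRED2 and 130 at RUNX1. Of 12 AP-1 genes, 6 had a gained region, JUN, FOSB, FOSL2, BATF, BATF3 and MAFK, with 7 regions in all, each kept. H3K27ac was called higher at 5 of the 7 at both 6 and 72 h, and the other 2, near FOSL2 and MAFK, had no H3K27ac region. Near BATF3, a partner of Jun in immune cells, Jun at chr1:212667327-212668283 was 9.19 and 6.59 CPM at 0 h, 14.8 and 19.7 at 6 h, and then 25.9 and 23.6 at 72 h. H3K27ac there was 0.511 and 0.949, 5.39 and 3.74, and 16.3 and 19.2 CPM, with no overlap between times (log2 fold change 2.59 ± 0.31 at 6 h and 4.58 ± 0.25 at 72 h, adjusted p = 7.35e-08 and 1.2e-14, edgeR). In FOSB (chr19:45470139-45470644), an early Fos partner, Jun was 1.46 and 2.72, 15 and 20.3, and 13 and 12.6 CPM, and H3K27ac, already 14.1 and 14.6 at 0 h, was 24.6 and 24.0 at 6 h and 27.8 and 28.1 at 72 h. Near FOSL2 (chr2:28445835-28446289) Jun was 2.48 and 2.87, 16.3 and 19, and 9.08 and 10.1 CPM, highest at 6 h.

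Among 16 genes of the EGR and early response list, 5 (EGR1, EGR2, KLF4, KLF6 and NR4A3) had 11 regions, with H3K27ac called higher at 8 at each time and Rad21 at 8. KLF6, a zinc finger factor, was near both a kept region and the only one of the lists that was not kept. At the one not kept, chr10:3848648-3849050 and 63439 bp from the gene, Jun was 2.04 and 5.02 CPM at 0 h, 22.9 and 28.8 at 6 h, and then 7.80 and 9.51 at 72 h, so 72 h still lay above 0 h, and no H3K27ac region was there. Rad21 there rose from 1.42 and 0.633 CPM to 4.76 and 6.22 (log2 fold change 2.33 ± 0.54, adjusted p = 0.0034). At the kept one, chr10:3838399-3839169, Jun was 7.58 and 9.03, 17 and 20.1, and 14.9 and 15.5 CPM, and H3K27ac 5.74 and 7.64, 23.2 and 23.7, and 19.5 and 20.4.

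Genes that feed back on MAP kinase signalling carried the most regions of any list. Of 12 such genes, 8 (DUSP1, DUSP5, DUSP6, DUSP10, SPRY1, SPRY2, SPRY4 and SPRED2) had 24 regions, each kept, with H3K27ac called higher at 21 at 6 h and at 21 at 72 h, no region at the other 3, and Rad21 called higher at 17. DUSP6 is the phosphatase of ERK, and 279147 bp from it, at chr12:89067251-89068088, Jun was 5.40 and 7.88 CPM at 0 h, 33.6 and 28.5 at 6 h, and then 21.5 and 23.9 at 72 h. H3K27ac there was 3.12 and 3.95, 33.6 and 34.3, and 50.8 and 61.3 CPM (3.25 ± 0.15 and 3.98 ± 0.15, adjusted p = 4.2e-15 and 4.45e-18), with each time above the one before. Rad21 there was 0.472 and 0.633 CPM at 0 h and 13.1 and 11.7 at 72 h (4.46 ± 0.47, adjusted p = 2.9e-06), and CTCF, at 0.765 and 0.722, 4.53 and 0.407, and 4.84 and 2.95 CPM, was not called at 6 h (adjusted p = 0.48). Near DUSP10, a phosphatase of JNK and p38 (chr1:221439047-221440756), H3K27ac went from 0.568 and 0.422 to 13.8 and 14.9 and then 58.9 and 63.5 CPM, and Jun from 6.27 and 8.74 to 19.1 and 28.3 and then 49.9 and 46.0. The largest Rad21 gain by the rule lay 294886 bp from SPRY2, an inhibitor of receptor tyrosine kinase signalling, at chr13:80040595-80041090, with 0 and 0.211 CPM at 0 h and 12.5 and 10.4 at 72 h, a ratio of 128 (95% interval 22.7 to 5104, counting error only).

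The NF-kappaB list had 4 of 13 genes with 5 regions, and H3K27ac was called higher at all 5 at both times and Rad21 at 2. In TNIP1, which restrains NF-kappaB, Jun at chr5:151075572-151076345 was 2.92 and 1.86, 23.2 and 28.1, and 18.1 and 14.9 CPM, and H3K27ac 0.795 and 0.790, 11.5 and 10.7, and 15.4 and 14.1. Of 13 protein kinase C and phorbol receptor genes, 5 had 10 regions, with H3K27ac called higher at 7 at 6 h and at 8 at 72 h and Rad21 at 2. In PRKCA, the gene of protein kinase C alpha, Jun at chr17:66514082-66514704 was 2.19 and 2.15, 16.6 and 22.8, and 11.8 and 12.9 CPM, and H3K27ac 1.48 and 1.21, 10.2 and 8.47, and 7.46 and 5.75, above 0 h at both later times.

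Megakaryocyte transcription factors had 6 of 13 genes with 15 regions (RUNX1, GATA2, ETV6, ERG, TAL1 and MEF2C), each kept. H3K27ac was called higher at 12 and lower at 2 at 6 h, and higher at 11 and lower at 1 at 72 h, and Rad21 was called higher at 9. In RUNX1, at chr21:34807198-34808636, Jun was 6.42 and 9.75 CPM at 0 h, 31.6 and 51.6 at 6 h, and then 50.9 and 44.4 at 72 h. H3K27ac there was 4.88 and 4.53, 62.6 and 85.9, and 123 and 133 CPM (3.98 ± 0.16 and 4.77 ± 0.16, adjusted p = 2.55e-16 and 4.85e-19), and Rad21 0.943 and 1.9 at 0 h and 8.34 and 7.35 at 72 h (2.50 ± 0.46, adjusted p = 0.00047). In ERG, an ETS factor of blood stem cells and megakaryocytes, chr21:38646374-38647056 had Jun at 3.65 and 3.44, 25.0 and 33.8, and 25.5 and 22.3 CPM. Its H3K27ac was 0.227 and 0.369 CPM at 0 h, 30.7 and 34.4 at 6 h, and then 46.1 and 45.9 at 72 h (6.73 ± 0.22 and 7.23 ± 0.21). Near TAL1, a blood lineage factor, chr1:47207552-47208362 had Jun at 3.50 and 5.16, 33.6 and 44.2, and 25.1 and 22.2 CPM, and H3K27ac at 1.70 and 1.42, 17.4 and 16.6, and 20.2 and 21.2.

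Platelet and megakaryocyte proteins had 8 of 21 genes with 13 regions (ITGB3, ITGA2, VWF, CD9, PECAM1, TBXAS1, F13A1 and SRGN), with H3K27ac called higher at 9 at 6 h and at 10 at 72 h, no H3K27ac region at 3, and Rad21 called higher at 9. In PECAM1, an adhesion molecule of platelets and endothelium, Jun at chr17:64355647-64356645 was 2.92 and 3.73, 33.6 and 39.8, and 26.3 and 26.1 CPM, and H3K27ac 1.02 and 1.00, 16.1 and 10.3, and 28.1 and 28.9. In VWF, von Willebrand factor, chr12:6093073-6093826 had Jun at 2.04 and 1.86, 17.5 and 17.3, and 14.8 and 15.1 CPM, and H3K27ac with no counts at 0 h, 2.52 and 1.82 CPM at 6 h, and then 6.12 and 4.81 at 72 h. In ITGB3, the platelet integrin beta 3, chr17:47267024-47267753 had Jun at 5.83 and 6.45, 17.9 and 22.3, and 17 and 15.9 CPM, and H3K27ac at 3.35 and 3.06, 8.12 and 11.2, and 14.2 and 15.7. Of 17 erythroid genes, 1 had a region, SLC4A1, the red cell anion exchanger.

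Adhesion and matrix genes (6 of 17, 10 regions) had H3K27ac called higher at all 10 at both times and Rad21 at 6. In CD44, a hyaluronan receptor, Jun at chr11:35214570-35215255 was 3.79 and 3.15, 22 and 29.7, and 8.51 and 10.6 CPM, highest at 6 h, while H3K27ac was 0.0568 and 0.0527, 3.50 and 4.18, and 5.94 and 4.44. Cytoskeleton genes (6 of 15) had 9 regions, with H3K27ac called higher at 6 at 6 h and at 5 at 72 h. Near ACTN1, alpha-actinin 1, Jun at chr14:69005433-69006635 was 6.42 and 6.45, 24.7 and 40.5, and 18.7 and 16.9 CPM, with H3K27ac at 0.681 and 0.685, 11.3 and 10.1, and 18.6 and 18.2. In VCL, the gene of vinculin at focal adhesions, Jun at chr10:74027154-74028136 was as high (9.63 and 12.6, 31.1 and 43.4, and 17.2 and 17 CPM), and no region of the other antibodies overlapped it. The same held near MYH10, a nonmuscle myosin (chr17:8649290-8650032, Jun 2.04 and 2.44, 16.3 and 18.2, and 5.61 and 6.49 CPM).

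Cytokines and receptors had 7 of 20 genes with 12 regions, and here H3K27ac was called higher at 8 at 6 h and at 6, with 1 lower, at 72 h, and Rad21 at 3. In IL6R, the interleukin 6 receptor, chr1:154405710-154406715 had Jun at 4.23 and 3.44, 22.5 and 28.3, and 15 and 12.7 CPM, and H3K27ac was highest at 6 h, at 0.625 and 1.05, 21.0 and 20.2, and 14.2 and 12.7. Near AREG, an EGF receptor ligand, chr4:74417980-74418940 had H3K27ac at 1.93 and 1.00, 11.5 and 12.2, and 8.69 and 7.94 CPM, also highest at 6 h. The region called lower lay 7629 bp from IL1R1, the interleukin 1 receptor (chr2:102062248-102062761), where Jun was 5.69 and 5.59, 15.2 and 18.4, and 9.56 and 8.02 CPM and H3K27ac 2.33 and 2.69, 3.50 and 2.41, and 1.09 and 0.546 (72 h against 0 h, −1.61 ± 0.37, adjusted p = 0.00033). Cell cycle arrest genes had 7 of 14 with 8 regions, and H3K27ac was called higher at 4 at 6 h and at 5 at 72 h. Near CDKN1A, the gene of the inhibitor p21, chr6:36644447-36645381 had Jun at 4.67 and 4.16, 10.2 and 15.5, and 12.9 and 14.3 CPM, and H3K27ac at 0.227 and 0.105, 2.38 and 1.08, and 1.52 and 1.93. No Rad21 region at any region of these 12 lists was called lower.

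The kept regions with the most Jun at 6 h differed in the other antibodies. Each already lay above the kept medians of 3.94 and 3.87 CPM at 0 h. CPM was not corrected for the copy number or width of a region, and the part of either in this ranking was not tested. At chr22:22727254-22729303, 79356 bp from GGTLC2, Jun was 43.5 and 40.3 CPM at 0 h without a called peak, 96.5 and 99.8 at 6 h and 218 and 197 at 72 h, and H3K27ac 5.57 and 4.85, 64.2 and 61.1, and 216 and 224. In FIBCD1, chr9:130927797-130928944 had Jun at 22.2 and 17.6, 76.9 and 84.1, and 105 and 104 CPM, and Rad21 at 11.5 and 9.08 and then 41.2 and 43.9. At chr6:14732566-14733510, 512559 bp from JARID2, Jun was 14.3 and 16.5, 66.7 and 80.8, and 52.2 and 48.2 CPM, and Rad21 2.67 and 1.27 and then 37.1 and 30.9 (4.04 ± 0.34, adjusted p = 1.15e-06). At chr21:35578130-35579908 H3K27ac went from 2.27 and 1.9 to 48.4 and 49.2 and 71.1 and 80.8 CPM. In DRC9, chr3:197907466-197909161 had Jun at 5.83 and 6.31, 58.8 and 77.6, and 89.0 and 88.2 CPM and H3K27ac at 6.48 and 5.17 at 72 h.

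Among the regions not kept with the most Jun, 3 had a level at 0 h inside the range at 6 h. At chr1:143221430-143221652 and chr1:143212441-143212652 Jun was 145 and 123, 201 and 95.1, and 36.1 and 27.3 CPM, and 123 and 97.5, 186 and 87.2, and 31.9 and 26.6. At chr20:31052038-31052484 it was 19.8 and 17.6, 32.9 and 14.4, and 4.28 and 3.74. In these 3, CTCF and Rad21 were high at every time, at 55.6 to 414 CPM and 41.0 to 302 CPM, and none was called in CTCF at 6 h or in Rad21. In PPP2R2D, a phosphatase subunit, chr10:131919971-131920481 did separate by time, with Jun at 4.08 and 3.58, 26.6 and 19.7, and 4.76 and 3.52 CPM, and no region of the other antibodies.

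Some kept regions had no H3K27ac counts at 0 h. At chr15:74185056-74186376 in STRA6, the receptor of retinol binding protein, H3K27ac had no counts at 0 h, 5.95 and 5.41 CPM at 6 h, and then 7.56 and 5.75 at 72 h, at least 68.7-fold higher at 6 h (3 counts over the group taken as the floor). In TAGLN3, chr3:112005279-112005533 was at least 56.4-fold higher at 6 h, from no counts to 4.83 and 4.48 CPM. At chr9:90044186-90045359, 437631 bp from GADD45G, H3K27ac was 2.73 and 1.43 CPM at 6 h and 16.3 and 21.0 at 72 h, at least 227-fold above 0 h by then. In CAMTA1, a transcription activator, chr1:7477265-7479808 had 0.114 and 0.211, 3.43 and 2.85, and 69.2 and 75.8 CPM, the largest rise from 6 to 72 h by the rule (4.54 ± 0.15, adjusted p = 3.02e-17).

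A smaller set of gained Jun regions overlapped, by at least 1 bp, an H3K27ac region called lower. The gain of Jun there is by the peak rule, and its levels are not printed. In PCTP, a phosphatidylcholine transfer protein, the H3K27ac region chr17:55815403-55818110 at a Jun region not kept had 69.9 and 84.5 CPM at 0 h, 13.9 and 10.3 at 6 h, and then 1.85 and 2.66 at 72 h, each time below the one before. Over 0 h the log2 fold changes were −2.69 ± 0.14 and −5.10 ± 0.17 (adjusted p = 2.94e-14 and 5.02e-19). In LDLRAD3, chr11:36104058-36105098 at a kept region had 41.6 and 41.4, 10.4 and 14.0, and 1.63 and 1.97 CPM (−1.75 ± 0.13 and −4.52 ± 0.17), so both fell at each step. Near SP2, a zinc finger factor, chr17:47934873-47936665 at a kept region had 48.2 and 44.9, 10.6 and 9.45, and 10.6 and 9.18 CPM, with the fall complete by 6 h.

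Rad21 was called lower at 8 kept regions and 1 not kept. In TSHR, the thyrotropin receptor, chr14:80996231-80996739 at a kept region had 8.18 and 6.33 CPM at 0 h and 0.744 and 2.45 at 72 h (−2.24 ± 0.49, adjusted p = 0.00203). In SLC22A2, an organic cation transporter, chr6:160254733-160255113 at a region not kept had 9.43 and 6.75 and then 1.19 and 3.58 (−1.82 ± 0.44, adjusted p = 0.00504). Near CD300LB, an immune receptor, chr17:74512548-74513095 went the other way, from 0.314 and 0 to 11.2 and 11.1 CPM, a ratio of 61.8 (95% interval 16.8 to 516, counting error only).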

How the data were processed

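Per the labels' protocols, K562 cells given 25 nM PMA were fixed with formaldehyde and libraries made with a KAPA kit. The submitters' processing notes name BWA 0.7.17, SAMtools 1.9, Trim Galore 0.4.3, bedtools 2.26, deepTools 3.0.1, MACS2, hg19 and hg38. Contig names and chromosome ends in the tables are those of hg38, which the coordinates here use, 1-based. The 4 region tables hold the authors' raw count per region and library. The authors' deposited log2 fold change and adjusted p-value columns of these tables were not used. The 22 peak lists, 1 per library, hold the authors' fold enrichment (a ratio), the authors' p-value and q-value on a −log10 scale per peak. Only position and q were used.

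The members and the gene lists were chosen with earlier results of these data known. Regions were tied by an overlap of at least 1 bp (pyranges 0.1.4), and where a Jun region met several regions of an antibody, that with the largest overlap was used to account for it. The whole count table of an antibody, all its time points together, was fitted in R 4.3.3 by edgeR 4.0.16 (filterByExpr, TMM, glmQLFit and glmQLFTest, without a replicate block), and regions with a Benjamini-Hochberg adjusted p under 0.05 were called. The SE is the size of the log2 fold change over the square root of F, and CPM uses the TMM-scaled total of tested regions. Replicates of a group differed by more than sampling noise. Tested on simulated counts with 200 regions raised 4-fold at 72 h, the fit recovered 186 among 127381 Jun, 189 among 92912 H3K27ac, 177 among 55268 CTCF and 175 among 78908 Rad21 regions, with 6.06%, 10.8%, 3.28% and 3.85% of calls false. Named regions were the 5 kept and 5 not kept with the most Jun at 6 h, the largest and smallest called changes of each antibody above its median level and with separate libraries, and up to 4 per gene list, and those printed were picked from these after their values were seen. Alternatives were other scalings, DESeq2 1.42.0, other count filters, only the time points compared, the replicate block, stricter peaks and overlaps, and leaving out each library. Motif searches around Jun summits were not run, since no genome sequence was used here. Depth outside the regions is unknown. A withheld item is not reported here.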

Additional observations from a re-analysis of the deposited data

How the results depend on the processing

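In 99 comparisons, a result over the gained Jun regions was set against an alternative other than leaving out a library. Of these, 82 gave a count within 1.5 times the main one or a share inside its 95% interval. Each count is of 1 direction, so a reversal could not be seen in it. The split of Jun calls at 72 h against 6 h did turn with scaling, as given above. Jun at 72 h against 6 h, 1230 called lower, gave 522 with total-count scaling, 331 with the scale set on regions with a peak in every library and 694 with DESeq2. CTCF called higher at 6 h (65) was 8 with a mean count of at least 50. CTCF called higher at 72 h over 0 h (267) was 507 with total counts, 63 with DESeq2, 12 with a mean count of at least 50, 516 with only the 2 time points compared and 99 when at least 50% of the Jun region had to be covered. CTCF called lower from 6 to 72 h (21) was 12 with the scale set on regions with a peak in every library, 4 with a mean count of at least 50 and 34 with the replicate block. Rad21 called higher (1589) was 906, 108 and 780 with DESeq2, the count minimum and the overlap. H3K27ac peaks of −log10 q of at least 5 lay in 17.4% of regions at 6 h (21.1% with all peaks) and 54.1% at 72 h (57.3%). Leaving out 1 library gave 4067 to 12843 gained regions, 71.0% to 96.7% kept, 365 to 1239 Jun regions called lower from 6 to 72 h (749 without replicate 2 at 6 h, 419 and 365 without replicate 1 or 2 at 72 h), 0 to 101, 2 to 462 and 10 to 32 CTCF regions in the order above, 903 to 1521 Rad21 regions (1088 without replicate 2 at 72 h), and H3K27ac peak shares of 6.12% to 6.52% at 0 h, 28.4% to 29.3% at 6 h and 61.0% to 64.1% at 72 h. A group left with 1 library was assumed to vary like the others.

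The replicate block changed no call by over 1.5 times other than CTCF from 6 to 72 h. The numbers do not pair the libraries: deviations of same-numbered libraries correlated at −0.022 to 0.124 between times. Of 381 alternative values of named regions, 359 kept their call, 22 lost it and 0 reversed. DESeq2 left 6765 CTCF and 9742 Rad21 regions without an adjusted p. The alternatives that needed sequence around Jun summits were not run, and adding TGACGTCA left the promoter count at 44.

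Each group has 2 libraries, and CTCF had 2553677 to 6068421 counts per library. Jun libraries were deeper at 72 h than at 6 h, and the part of depth in the share kept was not tested.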
